A study of Mus musculus with 2 samples.

Results

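Neutrophils were studied as the cells of 2 mouse lung libraries that met a rule on their transcripts, and the rule found 1104 of 15453 deposited cells. A cell was kept with at most 10% of its unique molecular identifiers (UMIs, each standing for 1 captured transcript) on mitochondrial genes. S100a8 and S100a9 together had to make up at least 2% of its UMIs, and at least 2 of the 6 genes Retnlg, Csf3r, Cxcr2, Mmp9, Il1r2 and G0s2 had to hold a UMI. Cd79a and Cd3e, genes of B and T cells, had to be at 0. Membership was thus chosen by the measured levels of these 10 genes. The control library gave 919 such cells and the fibrosis library 185.

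The libraries were droplet single-cell RNA sequencing of whole lung, 1 labelled control and 1 labelled fibrosis, each from 1 male C57Bl/6j mouse aged 3 months. Titanium dioxide particles or crocidolite asbestos, 100 µg in either case, had been placed in the trachea 14 days earlier. The labels describe both agents for both samples without saying which mouse received which. After perfusion the lungs were dissociated enzymatically (dispase, DNase I) and red cells were lysed, and the labels name no sort for any cell type. With 1 mouse in each group there was no replicate check, so no test between the groups was made and every 95% interval covers counting error only.

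Neutrophils are short-lived granulocytes made in the bone marrow, and a pool of them sits in the small vessels of the lung. They fill their granules in a set order while they mature, first with peroxidase and serine proteases, then with lactoferrin and cathelicidin, then with gelatinase, and they stop making most granule proteins before they leave the marrow. S100a8 and S100a9 encode the calcium-binding pair calprotectin, which fills the cytosol of mature cells. CXCR2 brings neutrophils to sites of injury, and CXCR4 holds young cells in the marrow and returns aged ones to it.

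The sequences just upstream of 5 genes are shown because these genes set the rule (S100a8, S100a9) or mark the granule-rich cells described further on (Camp, Ngp, Ltf). They come from RefSeq on GRCm38.p6 and run 5′ to 3′ along the gene's strand, up to the last base before both the RefSeq start and the gene's first annotated base in GENCODE M21. Capitals mark matches, on either strand, to TTGCNNAA (a C/EBP-type motif) or GAGGAAGT (an ETS-type motif bound by PU.1). C/EBP factors and PU.1 drive granulocyte development.
S100a8, chr3:90668821-90668977, plus strand: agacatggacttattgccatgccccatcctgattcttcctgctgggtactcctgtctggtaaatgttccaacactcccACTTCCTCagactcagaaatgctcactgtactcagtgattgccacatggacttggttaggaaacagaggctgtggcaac
S100a9, chr3:90695722-90695971, minus strand: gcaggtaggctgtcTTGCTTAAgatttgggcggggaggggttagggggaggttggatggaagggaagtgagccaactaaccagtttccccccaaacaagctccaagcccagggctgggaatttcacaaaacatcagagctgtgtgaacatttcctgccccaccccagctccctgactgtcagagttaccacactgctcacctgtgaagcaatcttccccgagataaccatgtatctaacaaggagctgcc
Camp, chr9:109849618-109849706, minus strand: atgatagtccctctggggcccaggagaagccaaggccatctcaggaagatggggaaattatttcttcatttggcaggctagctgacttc
Ngp, chr9:110419558-110419746, plus strand: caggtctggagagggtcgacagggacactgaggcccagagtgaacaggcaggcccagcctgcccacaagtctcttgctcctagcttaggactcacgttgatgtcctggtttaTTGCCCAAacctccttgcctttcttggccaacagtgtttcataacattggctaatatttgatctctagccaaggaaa
Ltf, chr9:111019042-111019270, plus strand: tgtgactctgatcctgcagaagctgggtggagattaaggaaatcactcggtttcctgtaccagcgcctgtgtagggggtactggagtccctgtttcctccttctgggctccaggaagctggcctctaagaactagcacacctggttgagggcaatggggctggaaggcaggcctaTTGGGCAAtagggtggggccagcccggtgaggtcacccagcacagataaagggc
Over windows of 250 bases before the RefSeq start, 9.56% of 32851 mouse promoters held the first motif and 2.44% the second. Of the 5 genes, 3 (S100a9, Ngp, Ltf) held the first and 1 (S100a8) the second. Camp held neither, and a second match of the first motif in the Ngp window lay in the bases that are not printed. The 2 motifs did not overlap in these windows. The 3 granule genes all lie on chromosome 9.

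The deposited cells of the 2 libraries began at different depths, which bears on every count here because neutrophils carry little RNA. No control cell had under 1460 UMIs (8280 cells, 36632591 UMIs, median 3783.5) and no fibrosis cell under 1915 (7173 cells, 38090308 UMIs, median 4292). At most 10% mitochondrial UMIs left 8026 and 6945 cells. The libraries shared 89 barcodes, 10 of them in control and 4 in fibrosis members. The values that set membership are a description and not a result. Among cells that met the other conditions, 23 control and 22 fibrosis cells had an S100a8 and S100a9 share of 2% to 3%, and 25 and 22 cells at 1% to 2% stayed outside. The median share of all other cells was 0.0516% for control and 0.0267% for fibrosis.

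The label held for only some of these cells. Clustering of the 1104 cells gave 11 subclusters. Subclusters 1 and 2, with 599 control (65.2%) and 44 fibrosis cells (23.8%), had no marker of another cell type raised 4-fold over the remaining cells. They are called core neutrophil-like cells, or core cells. The other 9 subclusters, with 320 control (34.8%) and 141 fibrosis cells (76.2%), each had at least 2 raised markers of 1 other type. This split was chosen after the clusters had been seen, and the clustering read all genes, so the genes that lead a subcluster are a description.

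**Figure D1:**
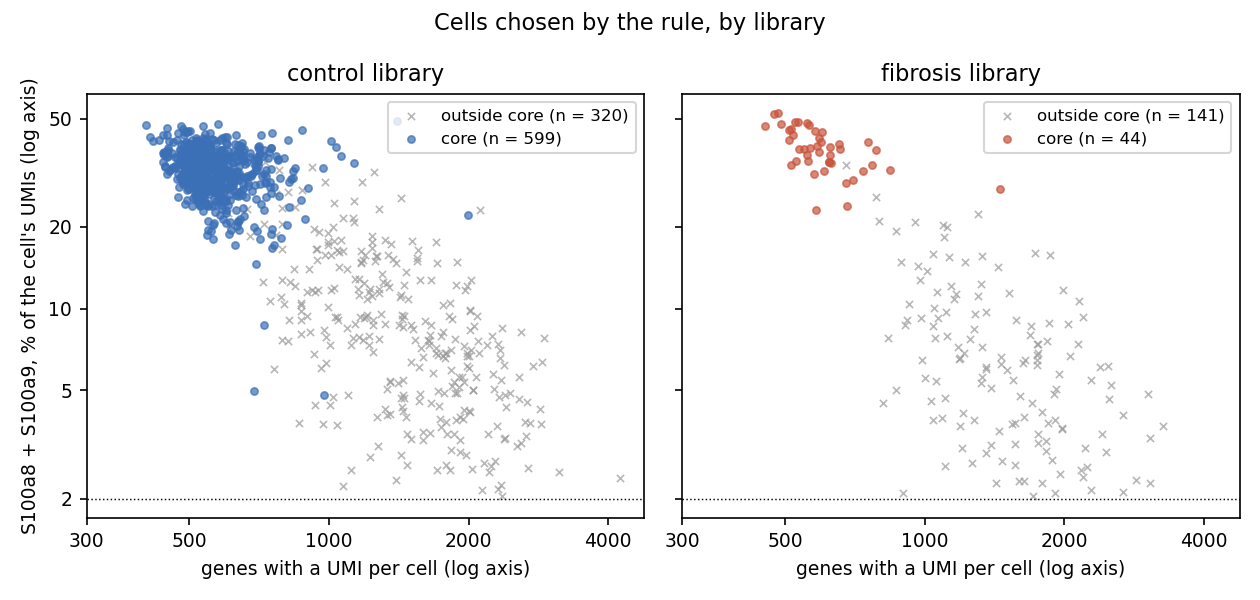
Each point is a chosen cell, by the number of genes with a UMI (x, log axis) and the share of its UMIs on S100a8 and S100a9 (y, log axis), for the control library (left) and the fibrosis library (right). Filled circles are core cells, crosses the other cells, and the dotted line the rule's 2%. Most core cells sit at the upper left in both libraries, with medians of 552 and 584 genes, and the other cells extend to the lower right.

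Core cells were small in RNA content and rich in calprotectin transcripts. Their median was 1813 UMIs and 552 genes in the control library and 2129 UMIs and 584 genes in the fibrosis library. S100a8 and S100a9 made up a median of 32.8% and 38.7% of their UMIs. Cells outside the core had medians of 4074.5 and 4264 UMIs, 1424 and 1463 genes, and 8.24% and 6.12% for the S100 pair. Taken as 1 set, the fibrosis members (median 3354 UMIs and 7.80%) were nearer to the cells outside the core and the control members (2032 UMIs and 28.8%) nearer to the core.

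The 9 neutrophil markers that the rule did not use (Ly6g, Cd177, Trem1, Hdc, Clec4d, Stfa2l1, Asprv1, Mmp8 and Camp) all passed a mean of 100 CPM (UMIs of a gene per 1000000 UMIs of the summed cells) in core cells. Their summed levels were 6169 CPM in control and 7841 in fibrosis core cells. Camp made up 855 and 2524 CPM of these sums, and all its fibrosis UMIs lay in 2 of 44 cells. The core was defined through markers of other cell types, and the rule set Cd79a and Cd3e to 0. Low levels of such markers were thus partly built in and are a description. Summed markers of 13 other cell types lay between 0 and 77.4 CPM in core cells of either library. Among these, the eosinophil markers Prg2, Epx, Il5ra and Ear6 were at 0 UMIs in both libraries. Classical monocyte markers summed to 316 and 348 CPM, most of it Ly6c2 (283 and 338), with Vcan at 0 in both. Surfactant and secretoglobin transcripts were present in core cells at 2617 and 2146.5 CPM for the AT2 (alveolar type 2) list and 8500 and 4863 for the airway list. They were also found in B cells gated from the same libraries: after thinning each cell to 1460 UMIs, a Sftpc UMI was seen in 93.8% of control and 93.2% of fibrosis core cells and in 89.2% and 89.6% of B cells.

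The subclusters outside the core were led by genes of monocytes, epithelium, endothelium, lymphocytes and macrophages. Subcluster 3 (91 control, 24 fibrosis cells) had all 5 nonclassical monocyte markers raised, among them Cd300e and Adgre4, and subcluster 4 (66 and 9) all 6 classical monocyte markers, among them Vcan and F13a1. Subcluster 5 (35 and 35) carried all 5 AT2 markers, summing to 135659 and 131663 CPM. Subcluster 6 (54 and 9) carried the 4 endothelial markers, subcluster 7 (26 and 16) markers of NK and T cells, and subcluster 8 (17 and 19) the dendritic markers Cd209a and Siglech. Subclusters 9 (9 and 14), 10 (9 and 10) and 11 (13 and 5) carried markers of alveolar macrophages, interstitial macrophages and fibroblasts. No core cell was among the 6% of cells with the highest doublet scores of its library, against 126 of 320 control (39.4%) and 33 of 141 fibrosis cells (23.4%) outside the core. Whether 2 cells shared a droplet in these cases was not tested beyond this score.

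**Figure D2:**
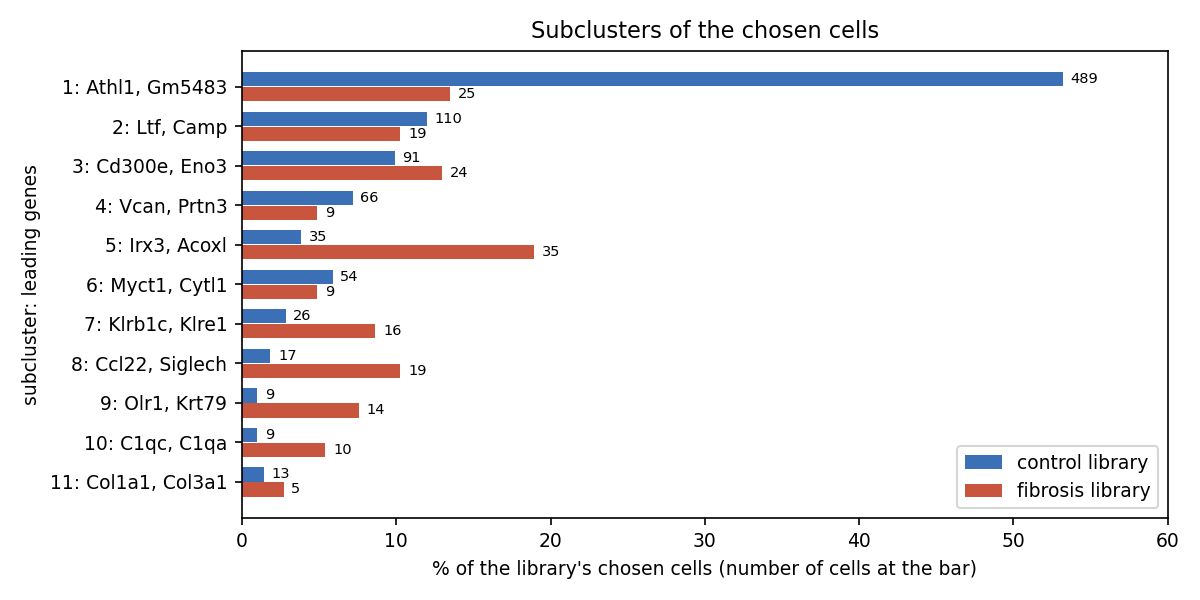
Bars give the share of each library's chosen cells in the 11 subclusters (x, percent), labelled by their first 2 leading genes, with the number of cells at each bar. Blue is the control library and red the fibrosis library. The longest control bar is subcluster 1 (489 of 919 cells, against 25 of 185 in fibrosis), and number 5, with AT2 markers, holds 35 cells of each library.

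Transcripts of other neutrophil genes accompanied the S100 pair in all 11 subclusters. Retnlg, a resistin-like peptide of neutrophils that is also part of the rule, stood at 78.8 and 91.2 UMIs per 1000 S100a8 and S100a9 UMIs in the 2 core subclusters and between 53.4 and 78.5 in the 9 others. Wfdc21, a whey acidic protein-type antibacterial gene, stood at 19.6 and 26.7 in the core and between 18.4 and 40.3 outside it. The highest value was in subcluster 9, and which cell type its Wfdc21 UMIs came from was not tested. Stfa2l1, a stefin (an inhibitor of cysteine proteases), ranged from 2.56 to 4.73 and from 3.44 to 5.38. Ly6g, the surface protein used to sort mouse neutrophils, ranged from 1.41 to 2.43 and from 0.477 to 2.28. Its values in subclusters 7, 9 and 10 rested on 7, 4 and 3 UMIs.

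Both the chosen cells and the core were a smaller share of the fibrosis library. All chosen cells were 11.5% of control cells (95% exact Clopper-Pearson interval 10.8 to 12.2) and 2.66% of fibrosis cells (2.30 to 3.07), a 4.30-fold difference. Core cells were 7.46% (6.90 to 8.06) and 0.634% (0.461 to 0.850), an 11.8-fold difference. Much of the control core lay below the depth at which fibrosis cells begin. With the floor of 1915 UMIs in both libraries, 240 control core cells remained, 3.64% of 6586 cells (3.20 to 4.13), and the difference from the fibrosis library was 5.75-fold. All chosen cells then differed 3.07-fold, at 8.17% (7.52 to 8.86) and 2.66%.

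At higher floors the core shrank quickly in both libraries. At 2500 UMIs it held 72 control and 12 fibrosis cells, a 6.34-fold difference in share, and at 3000 UMIs 22 (0.451%, 0.283 to 0.683) and 4 (0.0789%, 0.0215 to 0.202). Cells under the fibrosis library's floor were not observed there, so the share of core cells at lower depth in that library is unknown. For comparison, the 1915 floor would remove 42.5% of gated control B cells and 1.16% of gated control classical monocytes. Sampling of 1 lung each, the yield of digestion and the treatment cannot be told apart here.

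**Figure D3:**
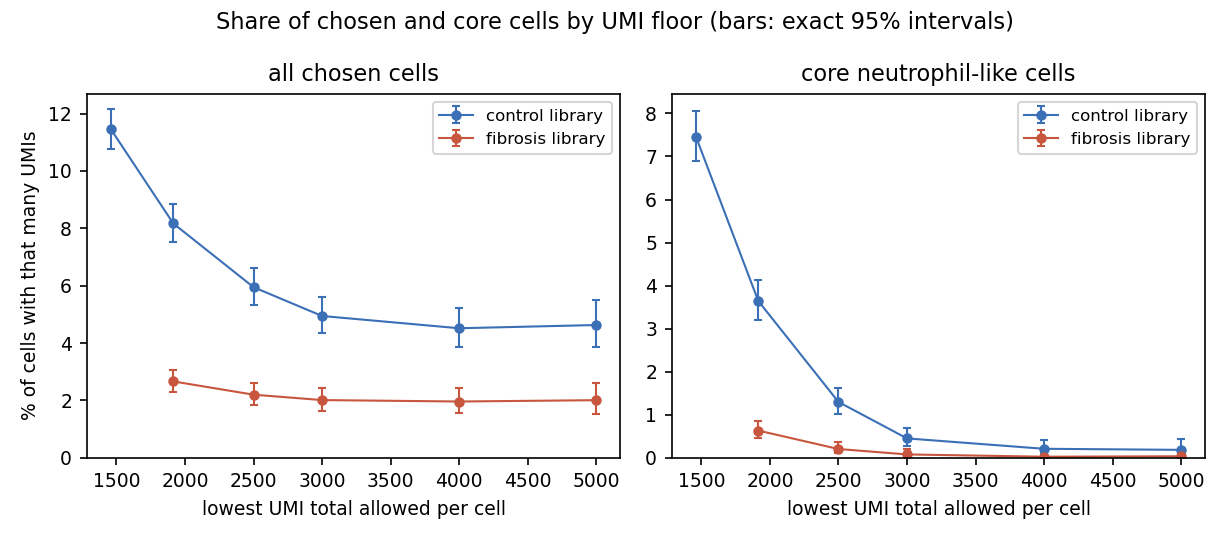
Share of chosen cells and of core cells (y, percent of cells with at least that many UMIs) against the lowest UMI total allowed per cell (x), for all chosen cells (left) and core cells (right). The points are the 2 libraries and the bars exact 95% intervals. The control library is above the fibrosis library at every floor for all chosen cells, and at floors up to 3000 UMIs the intervals of core cells do not overlap.

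Because the mixture of cells differed, the expression of all chosen cells was read first and then that of the core alone. Expression was the sum of UMIs over the cells as CPM, and ratios are log2 of fibrosis over control with 0.5 UMI added. Among 1037 genes with a mean CPM of at least 100 in all chosen cells, 83 (8%) were at least 2-fold higher and 63 (6.08%) at least 2-fold lower in the fibrosis library. Of these, 39 and 18 were under 100 CPM in the library where they were low. The 12 highest by the rule for named genes included Retnla, Ccl17, AY036118, Scd1, H2-Eb1, Gclc, H2-Aa, Lpcat1, S100g, Slc34a2 and Fasn. Several of these are genes of lipid synthesis and phosphate transport in AT2 cells (Scd1, Fasn, Lpcat1, Slc34a2) or of antigen presentation (H2-Aa, H2-Eb1). H2-Aa, for instance, stood at 238 CPM in control and 1255 in fibrosis cells. For 8 of the 12 the median ratio over the other gated cell classes was also at least 2-fold. In the core alone Gclc (-0.87), Lpcat1 (-1.53) and Fasn (-0.39) had negative ratios. These rest on so few core UMIs that the 0.5 UMI added shapes them, and no direction is settled. Of the 26 genes that were higher in the core, 8 were among the 83 higher in all chosen cells. With the rule's genes left out of the total, 1230 genes passed, of which 73 were higher and 119 lower.

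In core cells, 795 genes passed the same filter on mean CPM, of which 26 (3.27%) were at least 2-fold higher and 42 (5.28%) at least 2-fold lower in the fibrosis library. The core sums were 1185519 UMIs over 599 control cells and 103426 UMIs over 44 fibrosis cells, so the fibrosis counts limit the precision. Of the 26, 12 were under 100 CPM in the control library, and of the 42, 25 were under it in the fibrosis library, so these passed the filter only through the library in which they were high. The median log2 ratio over these genes was -0.15. The S100 pair took more of the total in fibrosis core cells. With the rule's genes left out of the total, 1193 genes passed the filter and their median was 0.03. Of them 100 were higher and 45 lower, and 26 and 30 of these were also called with the full total. Centred on their median, 48 of the 795 genes were higher and 29 lower. Either change of scale raises every ratio, so the sign of ratios from -0.15 to 0 depends on the scale, and Junb, for example, is then within 2-fold (-0.88 centred).

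Several abundant neutrophil genes were within 2-fold between the libraries in core cells. Retnlg (ENSMUSG00000022651, chromosome 16) stood at 27294 CPM in control and 28736 in fibrosis core cells, a log2 ratio of 0.07. S100a8 (ENSMUSG00000056054, chromosome 3) stood at 187183 and 233365 (0.32), and S100a9 at 142028 and 153424 (0.11). These 3 are part of the rule and are given as a description. With the median of the other gated classes subtracted their ratios were 1.24, 0.87 and 0.91, and Retnlg stood at -0.06 above the same UMI floor. Among genes outside the rule, Hdc, which makes histamine, stood at 1031 and 1044 (0.02), and Gm5483, a stefin-like gene, at 1864 and 1818 (-0.03). The chemokine Ccl6 stood at 3487 and 3365 (-0.05), and Stfa2l1 at 1393 and 1325 (-0.07). Stefin genes form a cluster of near-identical copies, so how their reads were divided is uncertain.

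Ifitm6, an interferon-induced transmembrane protein gene of myeloid cells (ENSMUSG00000059108, chromosome 7, 141015699 to 141017924 on GRCm38), was higher in fibrosis core cells. It stood at 725 CPM in control (859 UMIs, 677 to 775) and 2611 in fibrosis core cells (270 UMIs, 2308 to 2941), a log2 ratio of 1.85 (1.65 to 2.05). After thinning to 1460 UMIs, an Ifitm6 UMI was seen in 42.2% of control core cells (38.2 to 46.3) and 88.6% of fibrosis core cells (75.4 to 96.2), against 4.55% and 3.40% of B cells. Without thinning the core shares were 48.6% and 90.9%. With the same UMI floor the ratio was 1.37, and in the other gated classes the median ratio was -0.67, lower in the fibrosis library. Ifitm6 was among the leading genes of subcluster 2, but it was higher within each subcluster, at 438 and 1431 CPM in subcluster 1 and 1702 and 3999 in subcluster 2.

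Cxcl2, a chemokine that draws neutrophils through CXCR2 (ENSMUSG00000058427, chromosome 5), stood at 123 CPM in control (146 UMIs, 104 to 145) and 541 in fibrosis core cells (56 UMIs, 409 to 703), a log2 ratio of 2.14 (1.67 to 2.59). A UMI was seen in 10.5% of control (8.18 to 13.3) and 31.8% of fibrosis core cells (18.6 to 47.6) after thinning, against 0.350% and 0.849% of B cells. The median ratio in the 4 other gated classes with enough UMIs was 1.36, in the same direction. With that median subtracted the ratio was 0.79. Prok2, a secreted peptide made by neutrophils, stood at 127 and 445 CPM (1.81), with 37.0% of its 46 fibrosis UMIs in 2 cells.

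Vim and Il1b were also among the 12 lowest. Vim, the intermediate filament vimentin (ENSMUSG00000026728, chromosome 2, 13573927 to 13582826), stood at 1274 CPM in control (1510 UMIs, 1210 to 1340) and 232 in fibrosis core cells (24 UMIs, 149 to 345), a log2 ratio of -2.43 (-3.10 to -1.88). After thinning a UMI was seen in 449 of 599 control core cells (71.3 to 78.4%) and 16 of 44 fibrosis core cells (36.4%, 22.4 to 52.2), where B cells had 47.4% and 43.9%. The median ratio of Vim in the other classes was -0.25. The fibrosis share is at or below that of B cells, which express Vim themselves.

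Il1b, the cytokine interleukin-1 beta (ENSMUSG00000027398, chromosome 2), stood at 2318 CPM in control (2232 to 2406) and 764 in fibrosis core cells (605 to 952), a log2 ratio of -1.59 (-1.94 to -1.28). Its thinned share was 89.0% and 63.6% of core cells and 6.53% and 6.16% of B cells. Il1b was also lower in the other gated classes (median -0.92) and in gated classical monocytes (-1.10), and with the class median subtracted the ratio was -0.67. Within the core it was lower in both subclusters, at 2597 and 1037 CPM in subcluster 1 and 1368 and 442 in subcluster 2.

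**Figure D4:**
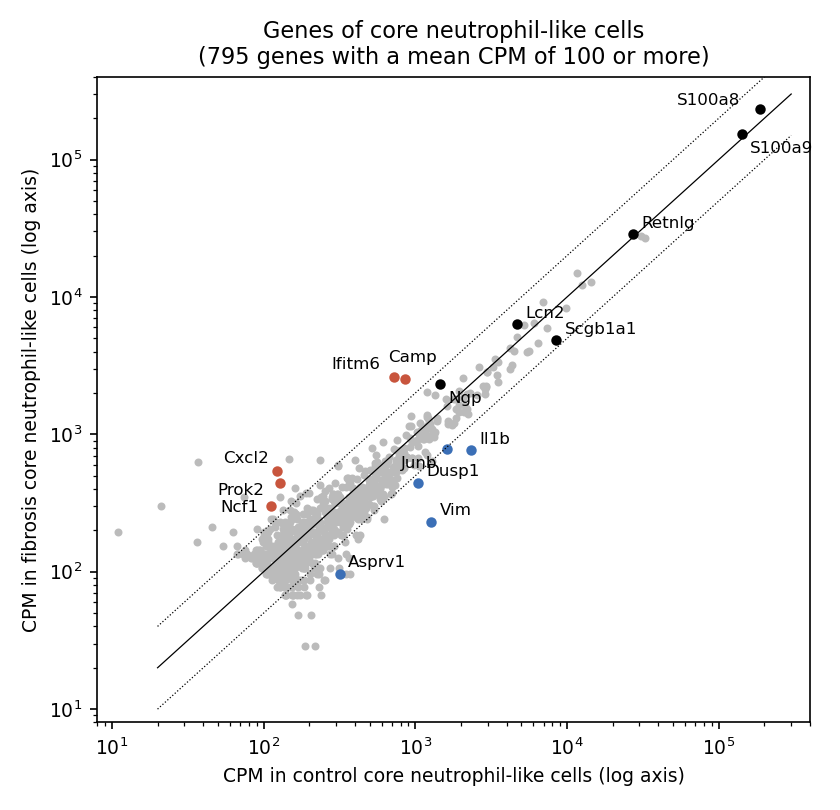
Each point is 1 of 795 genes, with CPM in control core cells on x and in fibrosis core cells on y (both log axes). The solid line marks equal levels and the dotted lines 2-fold. Grey points are unnamed genes. Ifitm6, Cxcl2, Camp, Prok2 and Ncf1 (red) lie above the upper line, Vim, Il1b, Dusp1, Junb and Asprv1 (blue) below the lower line, and Retnlg, S100a8, S100a9, Lcn2, Ngp and Scgb1a1 (black) between them.

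Among all 12 genes named as highest in the core, ratios ran from 1.46 to 4.12, and for 8 of them the median in the other gated classes was also at least 2-fold higher. These included Retnla, AY036118, Hist2h2aa1, Pgk1, Cxcl2, AA467197 and Chil3. With the class median subtracted, Retnla, Pgk1 and AA467197 changed sign. Samd9l, an interferon-induced gene that also passed the filter only through the fibrosis library, stood at 63.3 and 193 CPM (1.64) with 0.19 in the other classes, and Prok2 and Camp had too few UMIs in the other classes for a value. Among the 12 lowest, from Sirpb1c (-2.68) to Timm10b (-1.46), 2 (Sirpb1b and Asprv1) were also at least 2-fold lower in the other classes. Sirpb1b and Sirpb1c are close copies of each other, so the counts of both are uncertain. Sirpb1c and Xpc each rested on 3 fibrosis UMIs. The other lowest genes were Xpc, Bin2, Igsf6, Tuba1a, Tagln2 and Nadk beside Vim and Il1b.

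Granule genes were read along the order of maturation. Of the 6 primary granule genes, which include Mpo and Elane, none passed the filter, and they summed to 5.90 CPM in control and 19.3 in fibrosis core cells, with Mpo at 0 UMIs in both. Of the 14 secondary and tertiary granule genes, 11 passed, 3 were at least 2-fold higher (Camp, Cd177, Chil3) and none was 2-fold lower. Over all genes of the core 3.27% were higher and 5.28% lower. The list median was 0.55 beside -0.15 for all genes. Lcn2, the iron-scavenging lipocalin, stood at 4708 and 6372 CPM (0.44, but -1.10 with the other classes subtracted, where Lcn2 was higher in fibrosis), Mmp8, neutrophil collagenase, at 935 and 1151 (0.31), and the rule gene Mmp9, gelatinase, at 932 and 1363 (0.55). Within subclusters 1 and 2, the control and fibrosis levels were 43.6 and 35.8, then 346 and 484 CPM for Cd177, and 5.46 and 0, then 3750 and 5493 for Camp, none of them 2-fold higher in fibrosis. Chil3, a chitinase-like protein, stood at 154 and 429, then 520 and 905. With the same floor Cd177 stood at 0.57, and with the other classes subtracted Chil3 stood at 0.37. Olfm4 had no UMI. Anxa1 was the only 1 of the 11 with a negative ratio, at 1318 and 957 CPM (-0.45).

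The ratios of Camp, Ngp and Ltf rested on a handful of cells. Camp, the cathelicidin gene, had 1014 UMIs in 22 of 599 control core cells and 261 UMIs in 2 of 44 fibrosis core cells, a log2 ratio of 1.56. Ltf, lactoferrin, had 369 UMIs in 12 control and 61 in 3 fibrosis cells (0.93). Ngp, a cathelin-like granule protein, had 1714 UMIs in 112 control and 241 in 10 fibrosis cells (0.69). All 3 genes were present together in 11 control cells and 2 fibrosis cells. The 2 cells with the most of these UMIs held 97.0% of them in the fibrosis library and 45.7% in the control library. With the same UMI floor the ratios were 0.56 for Camp, -0.08 for Ltf and -0.27 for Ngp, so no direction is settled. Above that floor, the thinned shares of cells with a UMI were 6.67% of 240 control (3.86 to 10.6) and 4.55% of fibrosis core cells (0.555 to 15.5) for Camp, and 22.1% and 20.5% for Ngp. In B cells Camp was seen in 0.117% and 0%.

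Cells with at least 10 UMIs of Camp, Ltf and Ngp together numbered 13 of the control core (2.17%, 1.16 to 3.68) and 2 of the fibrosis core (4.55%, 0.555 to 15.5). They were the deepest core cells, with medians of 4137 and 4315 UMIs against 1793.5 and 2113.5 in the remaining core cells. Subcluster 2, which Ltf, Camp, Ngp and Cd177 led, held 110 control (18.4% of the core, 15.3 to 21.7) and 19 fibrosis cells (43.2%, 28.3 to 59.0). With the same floor the control share was 29.6% (23.9 to 35.8) and the 2 intervals overlapped.

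Beyond the granules, antimicrobial and oxidase genes were mostly within 2-fold. So were all genes of the core, of which 3.27% were at least 2-fold higher and 5.28% lower. Of 12 genes, 10 passed and 1, Ncf1 (the p47 subunit of the phagocyte oxidase), was at least 2-fold higher, at 111 and 300 CPM (1.45), and none was 2-fold lower. Cyba, a membrane subunit, stood at 1226 and 1257 (0.04), and Lyz2, lysozyme, at 5632 and 4071 (-0.47). Of the 12 stefin and other late neutrophil genes, 10 passed and Asprv1, a retroviral-like aspartic protease, was 2-fold lower, at 317 and 96.7 CPM (-1.65). Asprv1 passed the filter only through the control library. The only other class with enough UMIs gave -1.45. Of the 9 other S100 genes, 3 passed and none was past 2-fold.

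Receptors were mostly within 2-fold, as were all genes of the core (3.27% at least 2-fold higher and 5.28% lower). Of 11 chemoattractant receptors, 6 passed and none was past 2-fold, with a median of -0.24. Cxcr2 stood at 839 and 793 CPM (-0.07), and C5ar1, the receptor of complement C5a, at 473 and 290 (-0.68). Cxcr4 did not pass the filter. Its thinned share was 8.35% of control core cells, and 0 of 44 thinned fibrosis core cells held a UMI (3 counts, the limit that 0 allows, would be 6.82%). Without thinning a UMI was seen in 62 of 599 and 3 of 44 core cells. In B cells the thinned shares were 6.99% and 7.01%. Whether these are background or transcripts of the B cells themselves was not tested. The core values are therefore read neither as expression nor as a difference. Of 18 cytokine and growth factor receptors, 9 passed and 1, Tnfrsf1a (tumour necrosis factor receptor 1), was 2-fold lower, at 346 and 164 CPM (-1.03). Csf3r, the G-CSF receptor and part of the rule, stood at 887 and 677 (-0.38). Of 14 adhesion genes, 11 passed and Cd47, which signals against phagocytosis, was 2-fold lower, at 167 and 67.7 (-1.21, on 7 fibrosis UMIs). Cd47 passed the filter only through the control library.

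Of 16 innate sensors and activating receptors in the files, 12 passed, 1 was 2-fold lower (Clec4e) and none 2-fold higher. Over all genes of the core 5.28% were lower and 3.27% higher. The list median was -0.34 beside -0.15 for all genes. Clec4e, a receptor for mycobacterial glycolipid and dying cells, stood at 433 and 184 CPM (-1.20, and -0.42 with the other classes subtracted). Of 20 cytokines and chemokines, 6 passed, with Cxcl2 higher and Il1b lower as given. Il1a, Il10, Il23a and Cxcl16 had no UMI in core cells of either library. Osm, oncostatin M, stood at 118 and 126 CPM (0.14).

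Among immediate-early genes, Dusp1 and Junb were lower in fibrosis core cells. Of 20 genes in the NF-kB and immediate-early list, 10 passed, 2 were at least 2-fold lower (Dusp1 and Junb) and none 2-fold higher. Over all genes of the core 5.28% were lower and 3.27% higher. The list median was -0.32 beside -0.15 for all genes. Dusp1, a phosphatase that limits MAP kinases, stood at 1046 CPM in control (988 to 1106) and 445 in fibrosis core cells (326 to 593), a log2 ratio of -1.22. Junb stood at 1612 and 783 (-1.03) and Fos at 688 and 367 (-0.89). Dusp1 was seen in 73.0% and 43.2% of thinned core cells and Junb in 88.6% and 63.6%, against 49.4% and 42.0% of B cells for Junb. In the other gated classes the medians were -0.38 for Dusp1, -0.27 for Junb and -0.29 for Fos. With the same floor Junb stood at -0.82, short of 2-fold. The inhibitor Nfkbia (0.35) and Zfp36, which destabilises cytokine messages (-0.03), were within 2-fold.

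Interferon-stimulated genes past 2-fold were few and differed in direction. Of 22 genes, 9 passed, 2 were at least 2-fold higher (Ifitm6 and Slfn4) and 1 at least 2-fold lower (Isg15). Over all genes of the core 3.27% were higher and 5.28% lower. The list median was -0.11, beside -0.15 for all genes. Slfn4, a schlafen family gene, stood at 175 and 358 CPM (1.05), and Isg15, a ubiquitin-like protein, at 154 and 58.0 (-1.30, on 6 fibrosis UMIs). Isg15 passed the filter only through the control library. Slfn4 was within 2-fold above the same floor (0.94), and Isg15 with the other classes subtracted (-0.94). Ifitm1 (9908 and 8334, -0.25), Ifitm2 (4181 and 4264, 0.03) and Ifitm3 (2811 and 2243, -0.32) were within 2-fold. Mx1 had no UMI in either library.

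**Figure D5:**
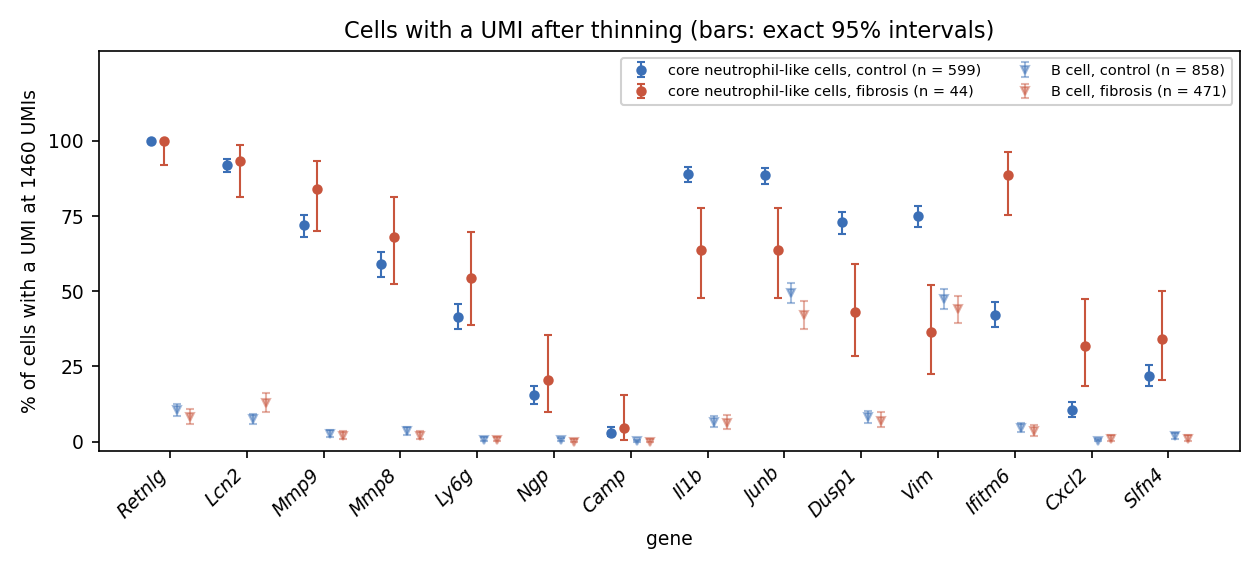
Share of cells with a UMI of each gene (y, percent) after every cell was thinned to 1460 UMIs, for core cells (circles) and gated B cells (triangles) of the control (blue) and fibrosis (red) libraries, with exact 95% intervals. Ifitm6 and Cxcl2 are seen in more fibrosis core cells and Vim, Il1b, Junb and Dusp1 in fewer, and Camp lies under 5% of core cells in both. B cells had median totals of 2067 and 2830 UMIs before thinning and core cells 1813 and 2129.

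Metabolic, transcription factor and survival genes gave few differences past 2-fold, as did all genes of the core (3.27% higher and 5.28% lower). Of 23 glycolysis and hypoxia genes, 10 passed, with Ldha lower (417 and 174 CPM, -1.22; other classes -0.07) and Pgk1 higher (36.3 and 164, 2.21; other classes 2.25), although Pgk1 passed the filter only through the fibrosis library. Of 22 transcription factors in the files 9 passed and none was past 2-fold. Spi1, which encodes PU.1, stood at 1329 and 1006 CPM (-0.40) and Cebpb at 104 and 184 (0.86). Of 17 survival and death genes 3 passed, among them Mcl1 at 593 and 541 CPM (-0.12). Of 12 lipid mediator genes 2 passed, among them Alox5ap, which serves leukotriene synthesis, at 2908 and 2204 (-0.40). Of 16 genes described for neutrophils adapted to tissue or tumours 6 passed and none was past 2-fold. Siglecf, one of them, was seen in 4 of 599 thinned control core cells (0.668%) and 0 of 44 fibrosis core cells, with the same limit of 6.82%. B cells had 0.699% and 1.06%, so these values are at background. Of 10 cell cycle genes 1 passed, and Mki67 and Top2a had no UMI in core cells of either library.

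Against gated classical monocytes (1550 control and 368 fibrosis cells), the genes with the largest excess in core cells were Camp, Ngp, BC100530, Stfa1, Gm5483, Retnlg, Ltf, Ly6g, S100a9 and Stfa2l1. For Gm5483 monocytes had 23 and 1 UMIs, and for Ly6g 9 and 0. Stfa2l1, the last of the 10, exceeded monocytes by a log2 ratio of 8.60 in the control library (1393 and 3.52 CPM) and 9.01 in the fibrosis library (1325 and 2.29). Camp, Ngp and Ltf owe this place to few cells, as given above, and S100a9 and Retnlg to the rule. The other 5 were among the leading genes of the core subclusters. The monocyte gate also left out every cell that met the rule, so the excess is a description.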

How the data were processed

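The data are single-cell RNA libraries of 10x Genomics 3' V2 chemistry, 1 per group. The deposited values are UMI counts per gene and cell, made by the authors with Cell Ranger 1.3 and bcl2fastq on mm10, per the submitters' processing notes, and the annotation is not given in the sources used here. Counts were used as deposited for 27998 genes, of which 27645 identifiers occur in GENCODE M21. Members, gene lists and comparator gates were chosen with earlier results of these data known.

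Member cells were clustered in scanpy 1.11.5 (1000 variable genes, 20 principal components, 15 neighbours, Leiden resolution 0.5, python-igraph 0.11.9). Doublets were scored with scrublet and kept. Sums of UMIs per library were scaled to CPM. A gene was called past a ratio of 2 with a mean CPM of at least 100, and 0.5 UMI was added to each sum. Intervals are exact (Poisson, conditional binomial or Clopper-Pearson, scipy 1.17.1) at 95%, and a count of 0 was given a limit of 3 counts. PCR and capture are not covered by them. Shares of cells with a UMI were taken after thinning to 1460 UMIs. The ratio and its interval were checked on simulated counts. Named were the genes of the rule and lists, the 12 highest and 12 lowest ratios whose interval lay past 0 on the log2 scale, the 20 most abundant genes, the leaders of subclusters and the 10 highest over gated monocytes. Mitochondrial, ribosomal protein, haemoglobin and predicted genes were left out of the 12, and the results of 2 named genes are not reported here. The median of the other gated classes is over those of 8 classes with at least 20 UMIs. Alternatives were the UMI floor, thinning, the rule's thresholds, scaling, filters, doublets, clustering and the core.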

Additional observations from a re-analysis of the deposited data

How the results depend on the processing

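No paired analysis was possible because each group holds 1 library and both are numbered mouse 1, and for the same reason no library could be left out. The control share of chosen cells (11.5%) was higher than the fibrosis share (2.66%) in every alternative run, with a ratio of fibrosis over control of 0.233. Above the same UMI floor the control share was 8.17% and the ratio 0.326. An S100 share of at least 5% gave 10.4% and 1.86%, a ratio of 0.179. The control share was 10.6% with cells thinned to 1500 UMIs before the rule, 10.5% with at least 3 of the 6 further genes, and 10.5% without the highest doublet scores. At most 5% mitochondrial UMIs gave 13.3% and 3.13%. Among cells with a Ptprc UMI the shares were 13.7% and 3.82%, a ratio of 0.278. For the core alone they were 7.46% and 0.634%, a ratio of 0.0849, and with the same floor 3.64% and 0.634%, a ratio of 0.174.

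Of the genes of all chosen cells, 83 were higher and 63 lower in the fibrosis library. A minimum of 50 CPM gave 189 higher, and one of 200 CPM 44 higher and 38 lower. Subtracting the median of the other gated classes left 28 higher and 19 lower, and the core alone had 26 higher. The same floor gave 33 lower, and an S100 share of at least 5% 39 lower. Leaving the rule's genes out of the total gave 119 lower among the 1230 genes that then passed. For the core, 26 higher became 100 with the rule's genes left out of the total, where 1193 genes passed. The count became 48 with centred ratios, 93 at 50 CPM and 14 at 200 CPM. It became 40 when the core was replaced by cells with an S100 share of at least 10% and at most 1000 genes. The 42 lower became 84 at 50 CPM and 18 at 200 CPM. With the same floor, 20 of the 25 higher and 33 of the 34 lower core genes were also called without it.

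Of the ratios of reported genes, 588 stayed within their counting interval, 132 moved outside it and 10 past 2-fold changed sign. Ratios within 2-fold changed sign 13 times, those of Csf3r, Cxcr2, Lcn2, Ltf, Ngp and Retnlg in the core. Subtracting the other classes gave -1.10 for Lcn2 and 0.31 for Csf3r, and -4.51 for Ltf, where 1 class had enough UMIs. At least 3 of the 6 further genes gave -0.84 for Ltf and -0.41 for Ngp. In all chosen cells, subtracting the other classes turned AY036118 to -0.028 and Wdr89 to 0.69. In the core alone Gclc turned to -0.87, Lpcat1 to -1.53, Fasn to -0.39, Ly6c2 to 0.28 and Wdr89 to 0.059. Of these, Gclc, Lpcat1, Fasn and Wdr89 had too few core UMIs to settle a sign. In the core with the other classes subtracted, Retnla turned to -1.72, Pgk1 to -0.047 and AA467197 to -2.51. The cause was not tested. Over the alternatives Ifitm6 ranged from 1.37 to 2.52 in the core, Cxcl2 from 0.79 to 2.30, Il1b from -1.61 to -0.67, Vim from -2.46 to -1.96 and Camp from 0.56 to 2.73.

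Clustering at resolution 0.3 left no subcluster without raised markers of another type, so it gave no core. At resolution 0.8 the core held 571 control and 44 fibrosis cells, and without the rule's genes among the variable genes 587 and 44. Members with no UMI of 8 markers of other types numbered 12 and 0, which gave no value. The core, its alternatives and the 10% cut were chosen after seeing the data. The 44 fibrosis core cells and the unobserved cells under 1915 UMIs limit what can be read.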

Other observations

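Cells that met every other condition of the rule but held a UMI of Cd79a or Cd3e numbered 103 among control and 47 among fibrosis cells. Per 1000 UMIs of the S100 pair, Hdc stood between 2.63 and 3.26 in the 2 core subclusters and between 3.19 and 7.66 in the 9 others, and Slpi, a secreted protease inhibitor, between 12.5 and 17.2 and between 13.9 and 26.0. Mmp8 stood between 2.44 and 3.99 in the core and between 1.70 and 6.02 outside it. Among all chosen cells, Plac8, a small cysteine-rich protein gene of myeloid cells, stood at 1468 CPM in control and 439 in fibrosis cells, and S100a4, a calcium-binding gene, at 477 and 147. For S100a4 the median log2 ratio of the other gated classes was -1.34.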
